A study of Mus musculus with 14 samples.

Results

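The genes of the tricarboxylic cycle enzymes that do not form or use succinate were examined in the ileum mucosa of mice with and without the corepressor NCoR1 in the intestinal epithelium. They were chosen by enzyme step and matched by symbol, which gave 9 of the 54532 genes in the count table, namely Cs, Idh2, Idh3a, Idh3b, Idh3g, Ogdh, Dlst, Fh1 and Mdh2. RNA-seq was available for 7 WT mice (NCoR1 flox/flox) and 7 IKO mice (the same floxed allele with a Cre recombinase under the villin promoter), 1 library per mouse. All were male, were put on the HFD (D12492) at 7 to 8 weeks of age and had eaten it for 15 weeks. Villin-driven Cre acts in epithelial cells, so other cells of the scraped mucosa keep the floxed allele intact.

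The cycle burns acetyl groups to carbon dioxide in the mitochondrial matrix and hands the electrons to the respiratory chain. Citrate synthase joins an acetyl group to oxaloacetate, isocitrate and 2-oxoglutarate dehydrogenases release the carbon dioxide, and fumarase and malate dehydrogenase restore oxaloacetate. In the small intestine, enterocytes run it largely on glutamine, which enters as 2-oxoglutarate, and citrate leaving it supplies acetyl groups for lipid synthesis.

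Each library held 14749669 to 21557468 counts, and the 9 genes took between 0.291% and 0.497% of them. Mitochondrially encoded transcripts were 50.3% of all counts in IKO 4 and 23.9% in WT 3, and 3.49% to 10.3% elsewhere. Ncor1 had 106.4 to 194.5 CPM (counts relative to library size, with sizes scaled by TMM factors) in WT and 31.7 to 64.0 in IKO mice. All 8 enterocyte markers listed were detected, with summed levels of 22452 to 86457 CPM in WT and 48453 to 61351 CPM in IKO mice. Fabp2 and Apoa1 gave the largest parts, with WT means of 17270 and 16865 CPM. Single markers could vary more, as Fabp6 did, with 186.3 to 7661 CPM in WT and 24.7 to 6143 in IKO mice. Of the 8 markers, 6 had a log2 fold change above 0, and edgeR called 0. The 6 smooth muscle markers summed to 10855 CPM in WT 4, 795.8 in IKO 1 and 391.6 in IKO 2, and to between 4.53 and 62.4 in the other mice. Fewer cells of a type and less RNA per cell cannot be told apart in such bulk samples.

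Promoters, from 250 bases before to 50 after the start in RefSeq (GRCm38.p6), were given for 8 of the 9 genes. The Mdh2 and Idh2 promoters are shown because these genes had the largest and the smallest difference between genotypes. Mdh2 is on the plus strand at chr5:135778399-135778698 and Idh2 on the minus strand at chr7:80115301-80115600. Capitals mark a match to any of the motifs searched, and the Idh2 promoter held none.
Mdh2: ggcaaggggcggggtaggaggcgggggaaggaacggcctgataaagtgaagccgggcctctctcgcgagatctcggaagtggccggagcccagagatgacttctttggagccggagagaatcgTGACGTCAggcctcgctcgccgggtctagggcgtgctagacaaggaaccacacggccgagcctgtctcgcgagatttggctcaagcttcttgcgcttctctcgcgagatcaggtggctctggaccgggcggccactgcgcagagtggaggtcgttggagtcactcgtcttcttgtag
Idh2: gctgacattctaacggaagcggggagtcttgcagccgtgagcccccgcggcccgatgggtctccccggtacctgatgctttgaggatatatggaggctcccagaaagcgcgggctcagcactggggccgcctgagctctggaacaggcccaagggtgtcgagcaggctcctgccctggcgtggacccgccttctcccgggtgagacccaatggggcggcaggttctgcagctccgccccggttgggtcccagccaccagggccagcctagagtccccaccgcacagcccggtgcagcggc

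The motifs were searched on both strands. A gene was counted if any of its listed promoters held the motif, while the shares are of single promoters. TGACGTCA, the cyclic AMP response element, was found in the promoters of Mdh2 and Ogdh, and in 1.79% of all 32851 promoters. In Mdh2 it began 127 bases before the start. The half-site AGGTCA of nuclear receptors was found for Idh3g, Ogdh and Fh1, and in 16.3% of all promoters. Ogdh, with 6 listed starts, also held CACGTG, the E-box (7.15% of all promoters), and GCGCATGC, the core bound by NRF1 (2.71%). No promoter of the 8 held AGGTCA repeated with 1 base between the copies (DR1, the arrangement PPAR dimers bind, 0.0396% of all promoters) or TCAAGGTCA, the element of estrogen-related receptors (0.423%), which contains the half-site. A match is a run of letters and was not tested for binding.

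The 9 genes were expressed at very different levels. Per gene length, in FPKM, the WT medians were 260.8 for Mdh2, 152.6 for Cs and 131.1 for Ogdh. Those of the other 6 genes were 37.4 for Dlst, 32.9 for Idh3b, 29.3 for Idh3g, 20.9 for Idh3a, 20.5 for Fh1 and 13.4 for Idh2. The highest median was thus 19.5 times the lowest in WT and 24.2 times in IKO mice. Mdh2 exceeded Cs, Cs exceeded Ogdh and Ogdh exceeded Dlst in all 14 mice. Idh3g exceeded Idh3a in all 14 as well. By FPKM, Dlst and Idh3b could not be ordered, since Dlst was higher in 4 of 7 WT and 4 of 7 IKO mice. The same counts were found for Idh3a over Fh1. These orders depend on the gene length used. It was 9559 bases for Dlst and 3422 for Idh3b, where the longest coding transcripts have 2764 and 1616. For Idh3a and Fh1 it was 5072 and 3392 bases, against 2580 and 2636. The order by transcript length was not examined. Idh3b exceeded Idh3g in 5 of 7 WT and 6 of 7 IKO mice, and Fh1 exceeded Idh2 in 6 of 7 WT and 7 of 7 IKO mice.

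None of the 9 genes differed between WT and IKO mice at an adjusted p under 0.05 (edgeR's quasi-likelihood test, Benjamini-Hochberg adjustment over 13846 genes), against 8.67% of all genes tested. All 9 fitted log2 fold changes, IKO minus WT, were above 0, where 43.5% of all genes lay above 0. Their median was 0.32, and that of all genes tested was -0.09. Before adjustment, 4 of the 9 had a p under 0.05, namely Mdh2, Cs, Idh3b and Idh3g, and among all genes 11.9% had such a p with a higher level in IKO mice. DESeq2 on the same counts called these 4 genes (adjusted p = 0.017 for Mdh2, 0.028 for Cs, 0.035 for Idh3b and 0.046 for Idh3g from DESeq2), where it called 8.57% of all genes as higher in IKO mice. No gene of the 9 separated the genotypes completely, while 1.83% of all genes had every IKO mouse above every WT mouse.

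**Figure D1:**
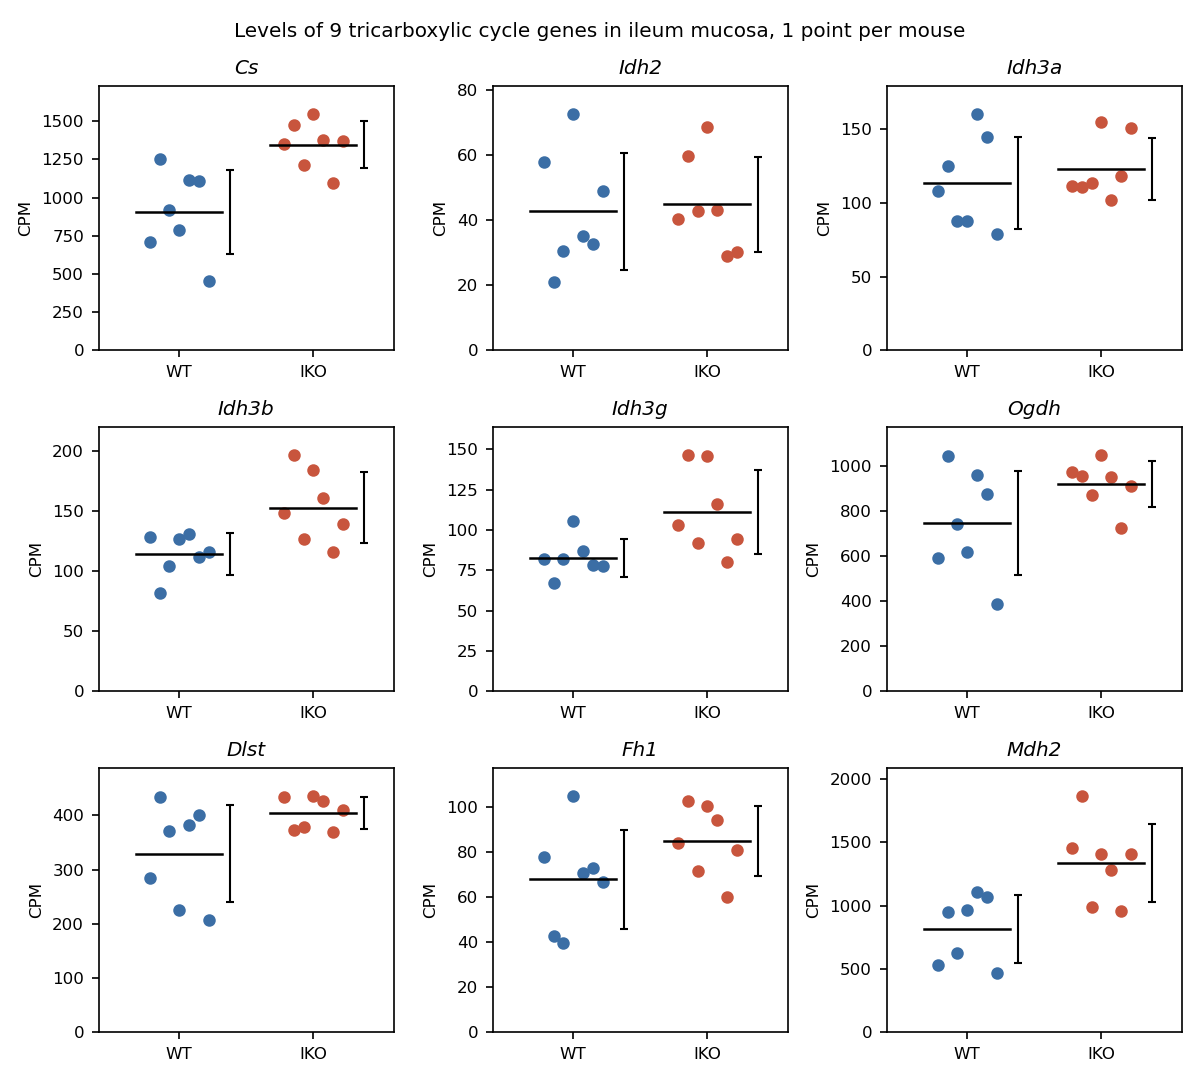
CPM of the 9 genes in each of 7 WT (blue) and 7 IKO (red) mice, with the mean as a line and the SD as a bar; every vertical axis starts at 0. The groups overlap in all panels, and in the panels of Cs and Mdh2 5 of 7 IKO mice lie above the highest WT mouse.

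Citrate synthase, encoded by Cs (chr10:128337734-128362479, plus strand, 11 exons in its longest coding transcript), catalyzes the entry of acetyl groups. Its level was 453.2 CPM in the lowest WT mouse, 915.9 at the median and 1249 in the highest, and 1093, 1369 and 1544 CPM in IKO mice. All 7 IKO mice were above the WT median and 5 of 7 above the highest WT mouse, WT 2. The WT mean was 905.9 ± 276.9 CPM (SD, n = 7) and the IKO mean 1346 ± 151.5 (SD, n = 7), a 1.49-fold difference (95% interval 1.08 to 2.04, log2 fold change 0.57, standard error (SE) 0.21, edgeR adjusted p = 0.095). Csl, a close relative of Cs whose reads the counting could confuse with it, had 9 counts over all mice, against 276380 for Cs.

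Isocitrate is oxidized by 2 kinds of enzyme in mitochondria. Idh2 (chr7:80094846-80115392, minus strand) encodes the NADP-linked form, a homodimer that makes NADPH. Its level was 21.2, 35.1 and 72.6 CPM at the lowest, median and highest WT mouse and 29.0, 42.8 and 68.6 CPM in IKO mice. The groups covered nearly the same range, and WT 4 held the highest level of all. The log2 fold change was 0.07 (SE 0.27, 95% interval -0.50 to 0.64, edgeR adjusted p = 0.880), the smallest of the 9, and its sign turned when WT 3 and IKO 4, the mice with the most mitochondrially encoded RNA, were left out (-0.13, adjusted p = 0.793).

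The NAD-linked enzyme is built from the products of Idh3a, Idh3b and Idh3g, of which the first carries the catalytic site and the others take part in regulating it. Idh3a (chr9:54586334-54604661, plus strand) had 79.2, 107.8 and 160.0 CPM in WT mice and 101.8, 113.3 and 154.8 CPM in IKO mice, again in the order lowest, median and highest. Its log2 fold change was 0.12 (SE 0.18, edgeR adjusted p = 0.685), and no IKO mouse exceeded WT 5, the highest. With 1 mouse left out it ranged from 0.038 (without WT 7) to 0.22 (without WT 5).
For Idh3b (chr2:130279309-130284547, minus strand), the levels were 82.1, 116.3 and 131.2 CPM in WT and 115.7, 148.4 and 196.6 CPM in IKO mice. The log2 fold change was 0.42 (SE 0.16, edgeR adjusted p = 0.096), and 5 of 7 IKO mice exceeded every WT mouse.
Idh3g (chrX:73778963-73786897, minus strand) had 67.0, 82.2 and 105.3 CPM in WT and 80.3, 103.4 and 146.3 CPM in IKO mice. Its log2 fold change was also 0.42 (SE 0.16, edgeR adjusted p = 0.10), and 6 of 7 IKO mice exceeded the WT median. For both of these subunits, IKO 2 and IKO 4 were the highest of the 14 mice and WT 2 was the lowest.

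The 2-oxoglutarate dehydrogenase complex contains an E1 subunit from Ogdh, which decarboxylates the substrate, and an E2 core from Dlst, which passes the succinyl group to coenzyme A. Ogdh (chr11:6291633-6356642, plus strand) had 388.4, 743.0 and 1046 CPM in WT and 725.1, 950.7 and 1049 CPM in IKO mice. The log2 fold change was 0.30 (SE 0.21, edgeR adjusted p = 0.340), and 0.18 without WT 7. Dlst (chr12:85110833-85134845, plus strand) had 207.4, 370.9 and 433.6 CPM in WT and 369.4, 410.6 and 434.9 CPM in IKO mice, with a log2 fold change of 0.29 (SE 0.18, edgeR adjusted p = 0.286). For both genes 6 of 7 IKO mice were above the WT median and the highest WT mouse was almost level with the highest IKO mouse. The coefficient of variation of Dlst was 27.2% among WT and 7.24% among IKO mice.

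Fumarase comes from Fh1 (chr1:175600374-175625635, minus strand), which serves both the matrix and the cytosol. Its levels were 39.5, 70.4 and 104.6 CPM in WT and 59.8, 84.1 and 102.6 CPM in IKO mice. The log2 fold change was 0.32 (SE 0.21, edgeR adjusted p = 0.301), and WT 4 was the highest of all mice.
Mdh2 (chr5:135778480-135790398, plus strand) encodes the mitochondrial malate dehydrogenase, which closes the cycle and also works in the malate-aspartate shuttle. Its levels were 470.0, 952.6 and 1108 CPM in WT and 956.6, 1405 and 1863 CPM in IKO mice. All 7 IKO mice were above the WT median and 5 of 7 above the highest WT mouse. The difference was 1.64-fold (95% interval 1.15 to 2.33, log2 fold change 0.71, SE 0.24, edgeR adjusted p = 0.071), the largest of the 9. Without WT 4, IKO 1 and IKO 2, the mice with the most smooth muscle marker RNA, it was 0.61 on the log2 scale (adjusted p = 0.242).

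**Figure D2:**
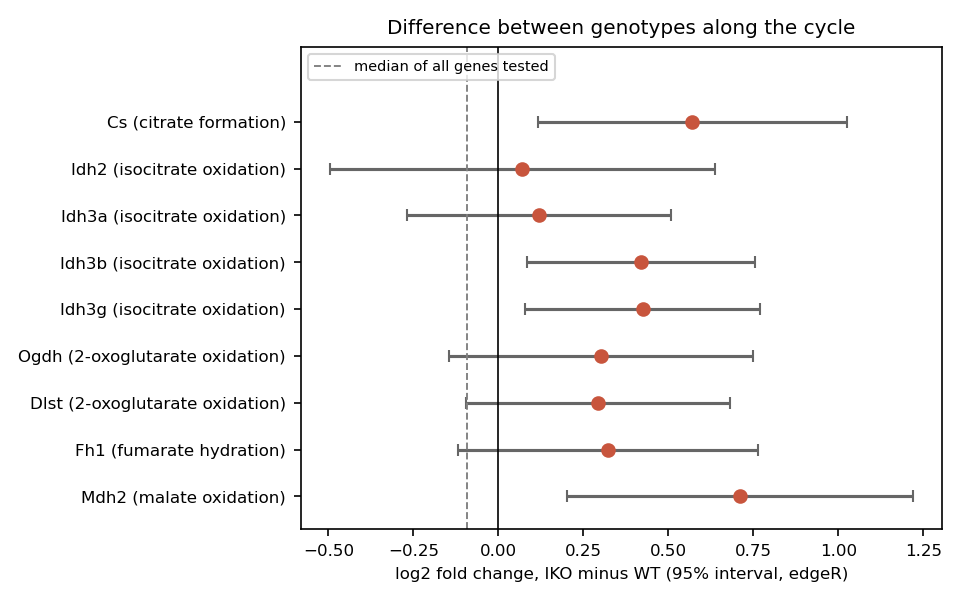
Fitted log2 fold change (IKO minus WT) of each gene with a 95% interval derived from the edgeR fit, in the order of the cycle. The dashed line is the median of all genes tested (-0.09). All 9 points lie right of 0, between 0.07 for Idh2 and 0.71 for Mdh2, and the intervals of Cs, Idh3b, Idh3g and Mdh2 exclude 0 before adjustment.

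Fh1, Idh3b, Idh2 and Cs share bases with another gene, which can matter for counting, and the strand setting is not given in the sources used here. Fh1 overlaps Kmo on the other strand over 5255 bases, introns included, and Kmo had 512 counts in all against 19685 for Fh1. Idh3b shares 5 bases with Nop56 on the other strand, which had 9945 counts against 34028 for Idh3b. Idh2 shares 1831 bases with Gm45203 on its own strand, which had 107 counts against 11411 for Idh2. Cs shares 135 bases with the snoRNA gene Gm23182 on its own strand, which had 7 counts against 276380 for Cs.

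The rest of the cycle and its surroundings were taken from lists. Of 9 further cycle genes, those for the succinate steps among them, 6 passed edgeR's test with a higher level in IKO mice and 0 with a lower one, with a median log2 fold change of 0.68. Among all genes tested, 4.38% passed as higher and 4.28% as lower. The 6 included Sdhd, which anchors succinate dehydrogenase in the membrane (log2 fold change 0.92, SE 0.19, edgeR adjusted p = 0.012). The edgeR adjusted p values of the 6 reached 0.045, close to the threshold, and the lowest of the 9 genes described here was 0.071 (Mdh2). DESeq2 called 6 of the 9 further genes and 4 of the 9 described here as higher. Whether the 9 genes described here differ from the 9 further ones as a set was not tested.
Of 11 tested genes for cytosolic counterparts and side enzymes, 4 were higher and 0 lower, with a median of 0.45. These were Idh1 (log2 fold change 0.89, adjusted p = 0.019) and Mdh1 (0.91, adjusted p = 0.024), the cytosolic forms of isocitrate and malate dehydrogenase, the transaminase gene Got1 (1.06, adjusted p = 0.011) and Me1, which encodes the cytosolic malic enzyme (2.16, adjusted p = 0.003), all from edgeR. Of 5 carriers that move cycle acids across the inner membrane, 2 were higher, the citrate carrier gene Slc25a1 (0.95, adjusted p = 0.009 from edgeR) and the 2-oxoglutarate carrier gene Slc25a11 (0.71, adjusted p = 0.018 from edgeR).
Of 11 genes for the entry of pyruvate, 3 were higher, Pdk4, Pcx and Pdp2, and 0 of 4 genes for lipoate attachment and complex assembly passed. Among 17 genes taken as a measure of mitochondrial content, such as porins and import subunits, edgeR called 1 as higher, Vdac1, and DESeq2 called 4, with a median log2 fold change of 0.42 for the list. That of the 9 cycle genes was 0.32. Of the 25 tested mitochondrially encoded genes edgeR called 1 as higher. All 25 had a log2 fold change above 0, but only 5 did without IKO 4 and 8 with DESeq2. Their share of the counts was 50.3% in IKO 4 against 3.49% to 6.10% in the other IKO mice, and 23.9% in WT 3 against 3.83% to 10.3% in the other WT mice. The part of this share in the result was not tested.

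Ratios between 2 genes of the same mouse do not depend on library size, so they were used to ask whether subunits or neighboring steps differed in proportion. The log2 ratio of Idh3b to Idh3g was 0.46 ± 0.16 (SD, n = 7) for WT mice against 0.47 ± 0.08 (SD, n = 7) for IKO, a difference of 0.01 (standard error 0.07, exact two-sided permutation test, p = 0.891). The ratio of Ogdh to Dlst was close too, with 1.163 ± 0.19 (SD, n = 7) for WT mice against 1.18 ± 0.12 (SD, n = 7) for IKO (difference 0.02, standard error 0.09, exact permutation p = 0.811). Idh3a relative to Idh3b was -0.05 ± 0.46 (SD, n = 7) for WT mice against -0.31 ± 0.35 (SD, n = 7) for IKO, a difference of -0.26 (standard error 0.22, exact permutation p = 0.251).
The difference of largest size was that of Idh2 to cytosolic Idh1. This log2 ratio was -2.66 ± 0.90 (SD, n = 7) for WT mice against -3.44 ± 0.61 (SD, n = 7) for IKO, a difference of -0.77 (standard error 0.41, exact permutation p = 0.086, adjusted p = 0.535 over 9 ratios), with 6 of 7 IKO mice below the WT median. Fh1 to Mdh2 differed by -0.38 (standard error 0.26, exact permutation p = 0.165) and Mdh2 to Mdh1 by -0.20 (standard error 0.16, exact permutation p = 0.237). None of the 9 ratios had an exact permutation p under 0.05, every adjusted p was at least 0.535, and the smallest p that this design allows is 0.00058.

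**Figure D3:**
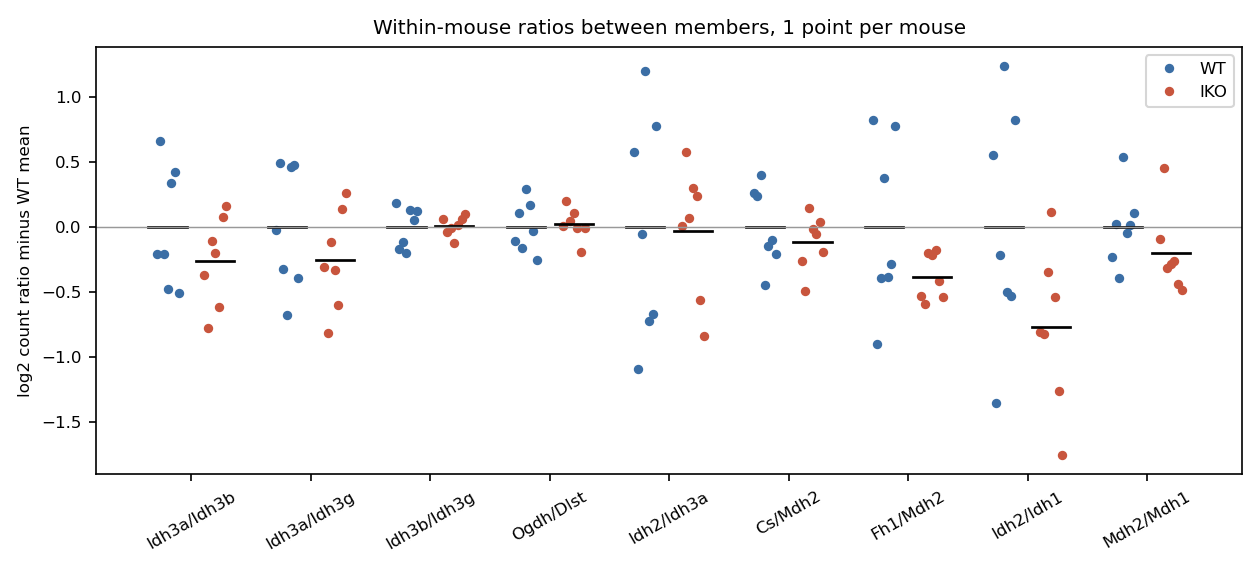
Within-mouse log2 count ratios for 9 pairs of genes, each centered on its WT mean, for 7 WT (blue) and 7 IKO (red) mice; black lines are group means. Idh3b/Idh3g and Ogdh/Dlst stay close to 0 in both groups, and Idh2/Idh1 has the lowest IKO mean, at -0.77.

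The genes did not all vary together across mice. With the genotype means removed, the log2 levels of the 14 mice fell into 2 groups of genes, chosen by eye after the values were seen and therefore given without a test. Cs and Ogdh followed each other most closely (Pearson's r = 0.99, Spearman's rho = 0.95), and with Dlst, Idh3a and Mdh2 they gave 10 pairs with r from 0.49 to 0.99. Idh2, Idh3b, Idh3g and Fh1 gave 6 pairs with r from 0.72 to 0.89. In the 20 pairs between the groups r was -0.63 to 0.43, with a median of -0.06. The subunit genes of the NAD-linked enzyme were thus divided, since Idh3b and Idh3g had r = 0.89 (rho = 0.92, r = 0.86 without the 2 mice farthest from the median) and Idh3a had r = 0.02 with Idh3b and -0.06 with Idh3g.

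The values within each genotype were unlike. Between the groups the median r was -0.34 over 7 WT mice, with 3 of 20 pairs above 0, and 0.76 over 7 IKO mice, with 20 of 20 above 0. Dlst against Idh2 had r = -0.86 in WT and 0.25 in IKO mice, and Cs against Fh1 had -0.32 and 0.97. The difference between the genotypes was not tested. In IKO mice Idh3a was apart from both groups, with r of 0.08 to 0.12 against the second and 0.11 to 0.33 against the others of its own. The median r within the first group was 0.80 in WT and 0.46 in IKO mice, and within the second 0.78 and 0.93, so the division into 2 groups was that of the WT mice and was not seen in IKO mice. Leaving WT 4 out gave a median of -0.32 in WT mice, and leaving IKO 2 and IKO 4 out gave 0.80 in IKO mice, with 16 of 20 pairs above 0.

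**Figure D4:**
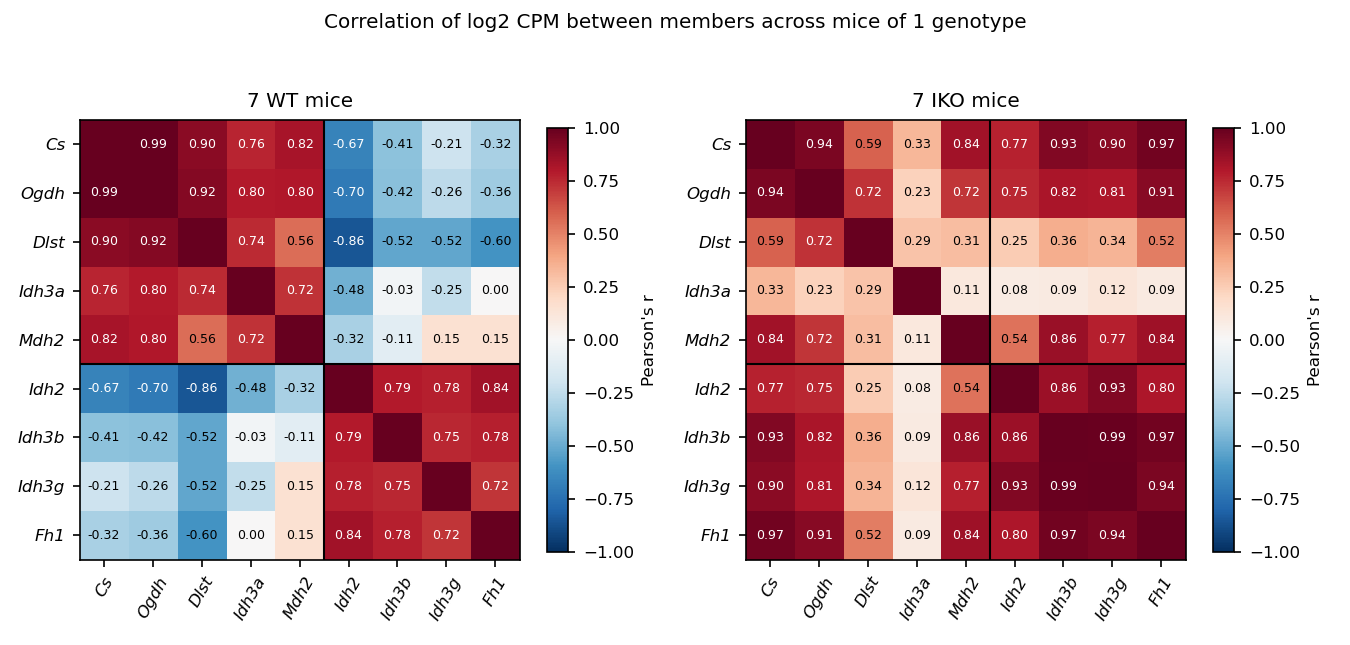
Pearson's r of log2 CPM between each pair of genes over 7 WT mice (left) and 7 IKO mice (right); black lines part the 2 groups of genes. In WT mice 3 of the 20 pairs between the groups are above 0, and in IKO mice 20 of 20 are.

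In WT 1, WT 4 and WT 7 the second group was high relative to the first. The mean log2 level of Idh2, Idh3b, Idh3g and Fh1 minus that of the other 5 genes was -2.15 in WT 1, -1.97 in WT 4 and -1.85 in WT 7. It was between -3.62 and -2.90 in the other WT mice and between -3.09 and -2.48 in IKO mice. WT 7 had the lowest level of all 14 mice for Cs, Idh3a, Ogdh, Dlst and Mdh2, and WT 4 the highest for Idh2 and Fh1. Other measures of the libraries were set beside this difference. With genotype means removed, its correlation over the 14 mice was 0.77 with the mean log2 level of 5 stroma and vessel markers (rho = 0.75, r = 0.75 without the 2 farthest mice), 0.58 with smooth muscle markers (rho = 0.75, r = 0.63) and -0.26 with enterocyte markers (rho = -0.24, r = -0.25). It was 0.45 with 5 lymphocyte and plasma cell markers (rho = 0.46, r = 0.58), 0.49 with the log2 TMM factor (rho = 0.60, r = 0.73) and 0.45 with the number of genes with a count (rho = 0.38, r = 0.74). For Paneth markers it was 0.16 (rho = 0.26, r = 0.46), for goblet 0.22 (rho = 0.40, r = 0.43) and for crypt stem 0.23 (rho = 0.21, r = 0.58). For enteroendocrine markers it was -0.18 (rho = -0.16, r = -0.23) and for Ncor1 -0.39 (rho = -0.50, r = -0.28). For the log2 mitochondrially encoded share it was -0.12 (rho = -0.08, r = -0.43). The mean of the first group alone had r = -0.74 with the lymphocyte and plasma cell markers, -0.71 with the TMM factor and -0.58 with the stroma and vessel markers. The TMM factor also scales the log2 levels, so part of its r with this mean is built in. The lymphocyte and plasma cell markers summed to 122.7 to 694.6 CPM in WT and 105.8 to 440.2 CPM in IKO mice. All 5 had a log2 fold change below 0, with a median of -1.41, of which edgeR called 0 and DESeq2 called 1 as lower, Ptprc.
The 5 stroma and vessel markers summed to 8.32 to 316.6 CPM in WT and 9.58 to 40.9 CPM in IKO mice. All 5 had a log2 fold change below 0, from -2.25 to -1.33, of which edgeR called 0 and DESeq2 called 1 as lower (Pecam1, DESeq2 adjusted p = 0.047). With the slope of each library's log2 levels on gene length the correlation was -0.13 (rho = -0.29). Removing these trends left r at 0.56 to 0.99 within the first group and 0.76 to 0.92 within the second. Between the groups r was then -0.40 to 0.40, with a median of 0.07 and 11 of 20 pairs above 0. Before removal the median was -0.06, with 7 of 20 pairs above 0. The genes of the first group have longer models, 3562 to 9559 bases against 2588 to 3422. The part of these measures in the pattern was not tested.

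**Figure D5:**
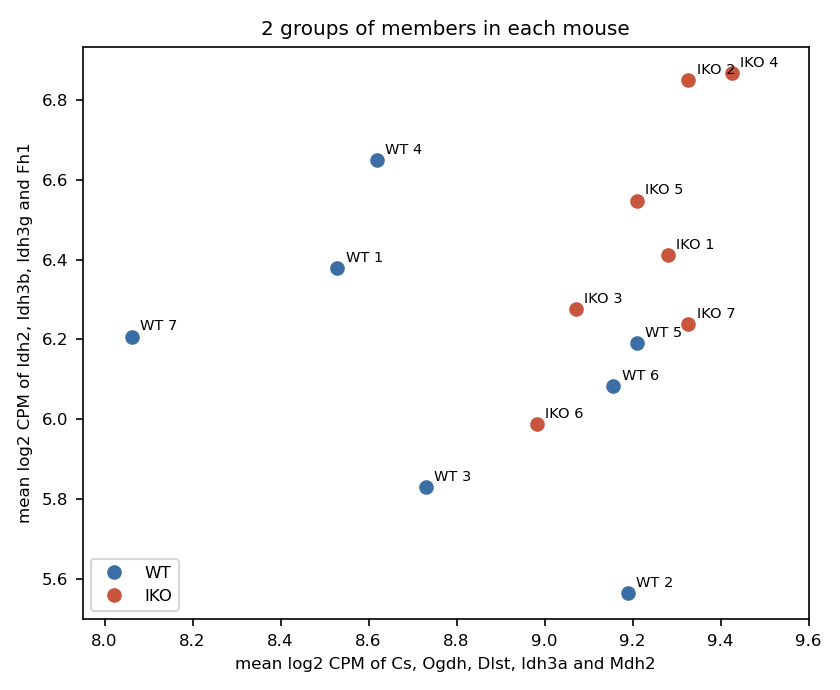
Mean log2 CPM of Cs, Ogdh, Dlst, Idh3a and Mdh2 (horizontal) against that of Idh2, Idh3b, Idh3g and Fh1 (vertical) in each mouse, WT in blue and IKO in red. WT 1, WT 3, WT 4 and WT 7 lie to the left of every IKO mouse, and WT 2 at the bottom.

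The genes most like the 9 were found by Pearson's r with the mean of their standardized levels over the 14 mice, genotype means removed, among genes outside the lists. They were Tuba1c (r = 0.91), a tubulin gene, Ddx49 (r = 0.90), a helicase gene, Atp5c1 (r = 0.90), for the gamma subunit of ATP synthase, Eci1 (r = 0.88), for an enzyme of unsaturated fatty acid oxidation, and Cap1 (r = 0.87), for an actin-binding protein. They were picked as the highest of the tested genes outside the lists, so the values are a description.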

How the data were processed

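RNA from scraped ileum mucosa of 7 WT and 7 IKO mice was sequenced by the authors as paired-end reads, aligned with HISAT2 2.0.5 and counted per gene with featureCounts 1.5.0-p3, per the labels on mm10. The deposited counts are raw. In the deposited FPKM, checked on the values, size factors of the DESeq2 kind and 1 constant stand in for the library total, with division by gene length. Gene positions are those of the count table and equal GENCODE M21 for the 9 genes. KO columns were read as IKO by their titles. Strandedness is not given in the sources used here.

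Counts were filtered with filterByExpr, normalized by TMM and tested with edgeR 4.0.16 (glmQLFit, glmQLFTest, genotype as the only term) in R 4.3.3, with Benjamini-Hochberg adjustment over 13846 genes and a threshold of 0.05. Log2 levels use a prior count of 2, and ratios add 0.5 to each count and use an exact two-sided permutation test over 3432 divisions of the mice. Depth was 14749669 to 21557468 counts. The lowest count of any of the 9 genes in a library was 329. The edgeR steps were tested on simulated counts with known changes, which held no outlying mice and no gene length trends.

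The 9 genes, the lists and the tests were chosen with earlier results of these data known. All 9 genes are named, and others come from the lists (at most about 20), from the 5 genes most correlated with the 9, or from genes overlapping them. Alternatives were DESeq2 1.42.0, RLE factors, removal of mitochondrially encoded genes, other filters, limma 3.58.1 on log2 FPKM (pseudocounts 1 and 0.1, filter 0.5 FPKM), voom weights, the mouse number as a block, and mice left out. Leaving out WT 4, IKO 1 and IKO 2, and limma on log2 CPM with and without gene length trends, were added after seeing the data. Some single genes of the lists are counted but not named.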

Additional observations from a re-analysis of the deposited data

Results flagged for a closer look

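A mouse far from the other 6 of its genotype was sought for each of the 9 genes, each ratio and 3 library measures, in 42 groups of 7. Chance alone would give about 1 in 20, or 2.1 groups, and 4 were found. None concerned the level of a single gene of the 9. In IKO 2 the log2 ratio of Mdh2 to Mdh1 was 0.49 against -0.44 to -0.06 in the other IKO mice (gap over range 0.588). IKO 2 also had the highest level of Mdh2, Idh3b and Idh3g, and without it the difference in this ratio was -0.31 in place of -0.20. The mitochondrially encoded share was 23.9% in WT 3 against 3.83% to 10.3% in the other WT mice (gap over range 0.676), and 50.3% in IKO 4 against 3.49% to 6.10% in the other IKO mice (gap over range 0.944). The TMM factor of IKO 4 was 0.579, where the others of its genotype had 0.888 to 0.967 (gap over range 0.795). IKO 4 had the highest CPM of Cs, Ogdh and Dlst, and without it their log2 fold changes were 0.54, 0.27 and 0.28. The part of these library measures in the levels was not tested.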

How the results depend on the processing

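Over 28 alternatives, 241 of 252 values of the 9 genes kept their direction and their side of the threshold, 4 passed it and 7 turned sign. The 4 that passed were Mdh2, Cs, Idh3b and Idh3g with DESeq2, so the count of called genes was 4 there and 0 in the other 27. Idh2 turned with at least 10 counts in every library (-0.0034), with voom weights (-0.10), without WT 3 and IKO 4 (-0.13) and with single mice left out (-0.057 without IKO 4 to 0.25 without WT 4), and Idh3a with voom weights (-0.032). Idh3a also moved by over 1.5 times in other settings. Among them were fits without WT 3 (0.067), WT 4 (0.067), WT 6 (0.19), IKO 4 (0.060), IKO 7 (0.066) or both WT 3 and IKO 4 (0.0044). With voom weights Idh3b (0.23), Idh3g (0.26) and Fh1 (0.17) fell by over 1.5 times. So did Ogdh without WT 7 (0.18) and Fh1 without WT 3 and IKO 4 (0.18). Ogdh (0.47) and Dlst (0.57) rose by over 1.5 times with length trends removed.

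Among all genes, 1200 were called (607 higher, 593 lower), 2484 with DESeq2, 1889 with voom weights, 648 without WT 3 and IKO 4, 614 with limma on unfiltered FPKM, 508 without a filter, 227 without WT 4, IKO 1 and IKO 2, and 515 (without IKO 5) to 1371 (without WT 2) with 1 mouse left out. The count also fell by over 1.5 times without WT 4 (746), WT 7 (600), IKO 1 (526), IKO 2 (728) or IKO 7 (789). With filtered FPKM the split was 708 higher and 328 lower, and with length trends removed 804 and 411. The median of all genes was -0.09 in the edgeR fit, 0.02 with filtered FPKM and -0.32 without a filter. With the mouse number as a replicate block, 362 genes were called and 0 of the 9. Mice of the same number had correlations of -0.31 to 0.23, so the numbers were not taken to pair them.

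No ratio passed under any alternative. With medians, Idh3a/Idh3b (0.0066), Idh3b/Idh3g (-0.043), Idh2/Idh3a (0.12) and Cs/Mdh2 (0.049) turned sign. Ogdh/Dlst did so without WT 3 and IKO 4 (-0.020), and Idh3b/Idh3g (-0.025) and Idh2/Idh3a (0.038) without WT 4, IKO 1 and IKO 2. With 1 mouse left out, Idh3b/Idh3g ranged from -0.024 to 0.040, Ogdh/Dlst from -0.022 to 0.069 and Idh2/Idh3a from -0.21 to 0.17. The causes were not tested.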

Other observations

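The genes varied more among WT than among IKO mice. The coefficient of variation of CPM was larger in WT mice for 7 of the 9, the exceptions being Idh3b (15.1% and 19.3% in IKO mice) and Idh3g (14.1% and 23.6%), and for 57.3% of all genes tested. For Cs it was 30.6% in WT and 11.3% in IKO mice and for Ogdh 31.0% and 11.1%. The log2 ratio of Fh1 to Mdh2 had an SD of 0.66 in WT and 0.18 in IKO mice, and 8 of the 9 ratios had the larger SD in WT mice. These differences in spread were not tested.

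Ogdhl, a relative of Ogdh known from brain and liver, had 444 counts over all mice against 206607 for Ogdh. Its log2 fold change was -1.43 (edgeR adjusted p = 0.058, DESeq2 adjusted p = 0.023), and 0 of 7 IKO mice exceeded the WT median. Dhtkd1, for a relative that acts on 2-oxoadipate, had 28 counts and was not tested.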
